A study of Homo sapiens with 10 samples.

Results

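The retinoblastoma protein Rb was profiled by CUT&RUN in OVCAR-3, an established line of human high-grade serous ovarian cancer, with and without the CDK2 inhibitor INX-315. CUT&RUN uses an antibody to bring a nuclease to a chromatin protein, so that the DNA around the protein is released and sequenced. The OVCAR-3 samples were chosen by their cell line label and made up 5 of the 10 samples in the series and 4 of its 8 Rb libraries. Of these, 2 Rb libraries came from cells given the solvent DMSO and 2 from cells given 300 nM INX-315, both for 2 days. A single IgG2a library from DMSO-treated OVCAR-3 cells served as the background list. The labels gave both treatment groups as wild type and named no other agent or allele, and the other 5 samples came from Kuramochi cells, a second serous ovarian line handled in the same way. Per the study's reporting summary, the profiling was done once with biological replicates in each arm, so p-values measure the spread between the libraries of 1 experiment.

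Rb is a pocket protein that binds E2F transcription factors and holds the genes they control in a repressed state. Cyclin-dependent kinases phosphorylate Rb as cells approach S phase, which releases E2F, and CDK2 with cyclin E is one of these kinases. E2F sites lie mainly in promoters of genes for DNA replication, whereas many mitotic genes are controlled through the MuvB complex and its CHR element. The comparison asked where Rb sat on the OVCAR-3 genome before and after CDK2 inhibition.

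Peaks of the 4 Rb lists that overlapped were merged into 18670 regions. Kept regions had a peak in all 4 libraries (4896), gained regions had one in both INX-315 libraries and in neither DMSO library (4187), and lost regions showed the reverse (13). A further 2758 regions had a peak in both INX-315 libraries and 1 DMSO library. Both INX-315 lists were longer than both DMSO lists, so the numbers gained and lost also depend on list length. The remaining regions were mostly those with a peak in 1 INX-315 library only (5868) or 1 DMSO library only (653). Each peak was measured by its summit height, the number of fragments over the summit divided by the genome-wide mean background of the same library. A promoter spanned 2000 bp upstream to 500 bp downstream of an annotated transcription start site.

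The first set of sequences shows 6 of the 41 kept regions that rose less than the common rise of all kept regions and had an E2F element in the summit window. They were taken in order of p, passing over regions where no stretch of 100 bases around the element, centred within 150 bases of the summit, had at most 30 UTR bases. All are + strand sequence of GRCh38 (hg38), 5′ to 3′, and the capitals mark matches to the E2F strings TTTGGCGC or TTTCCCGC on either strand.
FAM111B: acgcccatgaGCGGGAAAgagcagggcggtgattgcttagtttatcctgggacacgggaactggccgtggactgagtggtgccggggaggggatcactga
MYCN: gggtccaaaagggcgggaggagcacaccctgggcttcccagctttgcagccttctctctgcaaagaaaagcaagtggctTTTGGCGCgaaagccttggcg
CDT1: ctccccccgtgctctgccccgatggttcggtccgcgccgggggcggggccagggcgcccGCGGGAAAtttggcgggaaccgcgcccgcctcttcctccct
MCM6: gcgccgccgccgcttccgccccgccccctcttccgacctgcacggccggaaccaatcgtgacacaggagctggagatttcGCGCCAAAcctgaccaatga
S1PR5: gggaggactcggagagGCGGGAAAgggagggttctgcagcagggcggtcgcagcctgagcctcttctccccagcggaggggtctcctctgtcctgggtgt
CDCA7: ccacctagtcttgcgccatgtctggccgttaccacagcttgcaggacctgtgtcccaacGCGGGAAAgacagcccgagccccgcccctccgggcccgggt
The windows were chr11:59106810-59106909 (FAM111B), chr2:15940295-15940394 (MYCN), chr16:88803695-88803794 (CDT1), chr2:135876446-135876545 (MCM6), chr19:10517692-10517791 (S1PR5) and chr2:173354748-173354847 (CDCA7). FAM111B encodes a serine protease, MYCN a MYC family transcription factor, CDT1 and MCM6 origin licensing factors, S1PR5 a sphingosine 1-phosphate receptor, and CDCA7 a nuclear protein needed to maintain DNA methylation. A match to 1 of the 2 strings stood in 1.56% of start-site windows of 200 bp over all 19962 protein-coding promoters. A match is a description of the letters and not a measured binding site.

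The second set shows kept promoters with some of the largest rises, followed by gained promoters of high rank, each chosen to hold a GC box. Stretches were moved by up to 150 bases from the summit to include one within the same UTR limit, and promoters where this failed were passed over, the largest rise at CDC42BPA among them. The 200 bp summit windows of UNC93B1 and SH3GLB1 hold no GC box. Capitals mark the GC box GGGCGG, the string bound by SP and KLF factors, on either strand of the same build.
JMJD1C/REEP3: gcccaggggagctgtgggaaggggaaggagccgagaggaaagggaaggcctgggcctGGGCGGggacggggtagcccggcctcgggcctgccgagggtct
IQUB: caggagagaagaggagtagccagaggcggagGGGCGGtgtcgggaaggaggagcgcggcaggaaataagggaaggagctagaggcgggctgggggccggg
UNC93B1: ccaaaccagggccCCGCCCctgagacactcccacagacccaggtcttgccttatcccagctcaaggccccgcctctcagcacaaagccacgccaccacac
PCCB: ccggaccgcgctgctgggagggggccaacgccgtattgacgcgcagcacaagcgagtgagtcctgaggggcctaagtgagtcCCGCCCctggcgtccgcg
DCUN1D1: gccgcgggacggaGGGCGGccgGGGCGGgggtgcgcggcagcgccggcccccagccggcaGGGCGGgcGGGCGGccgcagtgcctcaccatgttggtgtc
SH3GLB1: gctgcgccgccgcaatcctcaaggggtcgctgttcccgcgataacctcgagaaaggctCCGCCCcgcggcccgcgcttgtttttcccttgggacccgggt
MKRN1: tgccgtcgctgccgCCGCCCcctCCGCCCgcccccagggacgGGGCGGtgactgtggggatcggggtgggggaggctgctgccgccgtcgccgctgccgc
They lay at chr10:63521615-63521714 (JMJD1C/REEP3), chr7:123534831-123534930 (IQUB), chr11:67996902-67997001 (UNC93B1), chr3:136250504-136250603 (PCCB), chr3:182980399-182980498 (DCUN1D1), chr1:86704498-86704597 (SH3GLB1) and chr7:140479194-140479293 (MKRN1). The GC box was found in 40.1% of all protein-coding start-site windows, so it is a common string. JMJD1C encodes a Jumonji domain protein and REEP3 an endoplasmic reticulum protein, and their divergent promoters share this region. UNC93B1 carries Toll-like receptors to endosomes, PCCB is a subunit of propionyl-CoA carboxylase, DCUN1D1 assists neddylation of cullins, SH3GLB1 bends membranes and MKRN1 is a ubiquitin ligase.

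Median peak width was 505 and 535 bp in the DMSO libraries and 746 and 775 bp in the INX-315 libraries. Median summit height over all listed peaks was 22.2 and 21.9 in the former and 42.4 and 42.8 in the latter. Neither measure overlapped between treatments, and each had an exact two-sided permutation p = 0.333, the smallest that 2 against 2 libraries can give. The genome-wide mean background, which stands in for depth, was about equal in the DMSO libraries, at 0.495 and 0.501 fragments per base, and lower with INX-315, at 0.307 and 0.421. Background was therefore lower in the libraries with the higher peaks, and height is relative to it. No spike-in scaling was used here, so a rise common to the genome and a difference in assay efficiency between libraries cannot be told apart. The number of copies of a locus also scales its height and was not measured here. The weakest listed peaks rested on 4 or 5 fragments, so single heights near that level are imprecise.

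Rb height rose at nearly all kept regions after INX-315. The median kept region stood at 24.3 and 27.9 times background in the DMSO libraries and at 78.3 and 114 times background in the INX-315 libraries. The 2 INX-315 libraries were both above the DMSO libraries but differed from each other, with median rises over the DMSO mean of 2.82-fold in replicate 1 and 4.17-fold in replicate 2. Of 4889 kept regions with recovered heights, limma called 4783 higher (97.8%) and 0 lower at an adjusted p under 0.1, and 0 were lower at an unadjusted p under 0.05. The treatments were fully apart, with INX-315 on top, in 4825 regions (98.7%), and in 1, on an unplaced contig, both lay under them. The median rise over kept regions was 1.77 on the log2 scale, or 3.42-fold, with a median standard error of 0.46 (n = 2 against 2). The range from the 5th to the 95th percentile was 1.92-fold to 5.59-fold. Because 1 shift of whole libraries is shared by all regions, the number called does not count independent events.

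**Figure D1:**
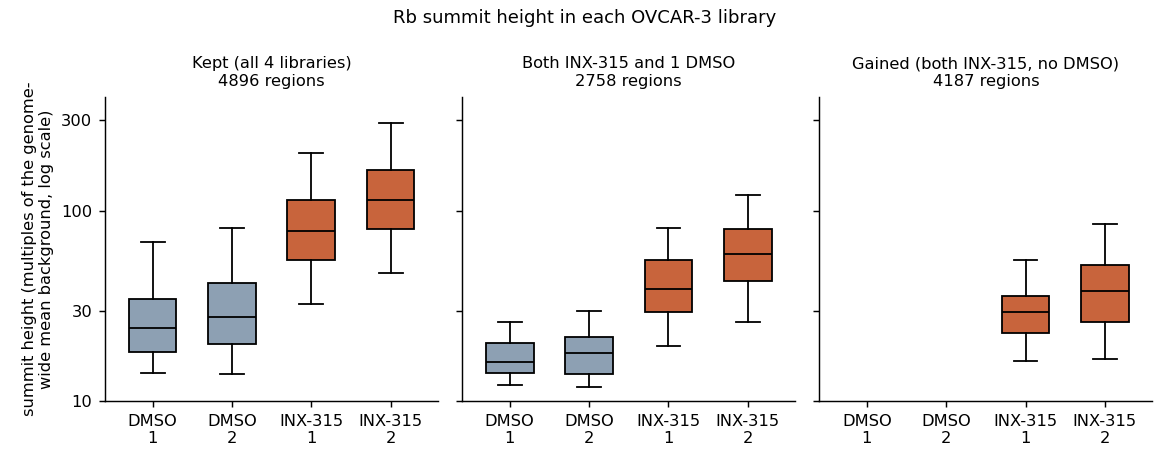
Summit height (multiples of the genome-wide mean background, log scale) in each of the 4 OVCAR-3 Rb libraries for 4896 kept, 2758 intermediate and 4187 gained regions. Boxes span the quartiles with the median as a line and whiskers the 5th to 95th percentiles. Kept medians were 24.3 and 27.9 with DMSO, 78.3 and 114 with INX-315, and gained medians were 29.4 and 38.0.

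The listed peaks of kept regions were also wider. Width is the length called at a q-value of 0.05, so it depends on height over background. Spread along the DNA was not measured apart from height. Both INX-315 peaks were wider than both DMSO peaks in 4254 kept regions (86.9%), and the median width ratio within a region was 1.81. Median width over kept regions was 573 and 711 bp in the DMSO libraries and reached 1128 and 1292 bp in the INX-315 libraries. The summit itself stayed close by. Median distance between summits of the same region was 98 bp between the DMSO libraries, 65 bp between the INX-315 libraries and 83 to 89 bp across treatments. Distances across treatments thus lay within the range seen between replicates. The order of heights was also largely shared, with Spearman correlations across kept regions of 0.77 within DMSO, 0.89 within INX-315 and 0.71 to 0.75 across treatments, given as a description of regions that are not replicates.

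The 12 largest called rises at promoters ranged from 7.88-fold to 9.21-fold. DMSO height enters the rise, and several of these promoters rested on few DMSO fragments. CDC42BPA, a kinase that acts downstream of CDC42, had heights of 10.1, 12, 88.1 and 117 in DMSO 1, DMSO 2, INX-315 1 and INX-315 2, the order used throughout. This was a 9.21-fold rise (log2 3.20, SE 0.46, limma adjusted p = 3.79e-09, chr1:227317678-227319046), and the DMSO summits held 5 and 6 fragments. JMJD1C/REEP3 followed at 14.1, 19.9, 108 and 219 (log2 3.19). NUDT4, which hydrolyses diphosphoinositol polyphosphates, had 24.3, 29.9, 196 and 283 (log2 3.13), and UNC93B1 28.3, 23.9, 173 and 302 (log2 3.13). The treatments were far apart in each of these. BBS9/RP9 (3.12) and BBS7 (2.98) include 2 genes for subunits of the BBSome, the coat complex of cilia. The other largest called promoters were IQUB (3.16), the zinc finger gene ZNF17 (3.03), the BMP co-receptor RGMB (3.02), the F-box gene FBXO11 (3.02), the nuclease gene EEPD1 (3.01) and the protocadherin FAT4 (2.98).

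Kept regions outside promoters were few and rose somewhat less. Of 177 tested, 153 were called higher, with a median of 1.51 on the log2 scale against 1.78 at promoters, and this difference was not tested. The largest rises among them lay in CAMTA1, 89.0 kb from its nearest start site (log2 3.01, heights 22.2, 25.9, 140 and 266), near AHNAK (2.64) and 24.0 kb from YY1 (2.58). All 3 were classed as intronic by the annotation. CAMTA1 encodes a calmodulin-binding transcription activator, and YY1 a zinc finger factor.

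The 10 kept promoters with the highest mean height over the 4 libraries rose by 1.69-fold to 3.68-fold. EMSY, which encodes a partner of BRCA2, had the highest mean and the highest DMSO values of the 10, with heights of 374, 425, 626 and 720, a 1.69-fold rise (SE 0.28 on the log2 scale, limma adjusted p = 0.00851). SLF2, which recruits the SMC5/6 complex, had 236, 357, 519 and 713 (2.09-fold). CLSPN, the checkpoint adaptor claspin, had 182, 283, 375 and 447 (1.80-fold). Libraries did not overlap between treatments in any of these. INTS4, a subunit of Integrator, had 188, 229, 679 and 813 (3.58-fold), above EMSY in both INX-315 libraries. The nuclear transport genes CSE1L and KPNB1 rose 2.63-fold and 2.37-fold, HNRNPL 3.09-fold, CNOT3 of the deadenylase complex 3.40-fold, TTC9B 3.68-fold and GGN/SPRED3 3.24-fold. EMSY and INTS4 lay near each other on chr11, with starts at 76444252 and 77994071. GGN/SPRED3, HNRNPL and TTC9B lay near each other on chr19, with starts at 38387141, 38849043 and 40216350. Copy number, which scales height, was not measured at these loci.

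To see which regions departed from the common rise, heights were centred on the median of each library over kept regions and refitted. On this scale a smaller rise than the median becomes a negative value, so each direction here is relative to the common rise. The regions above the common rise numbered 146 (2.99%) and those below it 389 (7.96%), at a limma adjusted p under 0.1. Of the 389 regions below, 283 were still called higher without centring. These calls rest on all 4 libraries: with DMSO 1, DMSO 2, INX-315 1 or INX-315 2 left out, 0 regions were called on either side, while all 389 and all 146 kept their sign. Scaling by the local background gave 0 and 0 calls, and 388 of 389 and 143 of 146 kept their sign. These settings were chosen after the data were seen. The regions were picked from the same libraries that these fits reuse, so a kept sign is no separate evidence for them. Regions below the common rise had higher DMSO summits (medians 36.4 and 39.9) than the rest (24.3 and 27.9), and since DMSO height enters the rise, this is a description. The libraries of Kuramochi were not used for these calls. Of 273 regions below that had a peak in all 8 libraries, 236 (86.4%) also rose less than the Kuramochi median, against 1425 of 2845 (50.1%) for regions on neither side and 10 of 107 (9.35%) for regions above.

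**Figure D2:**
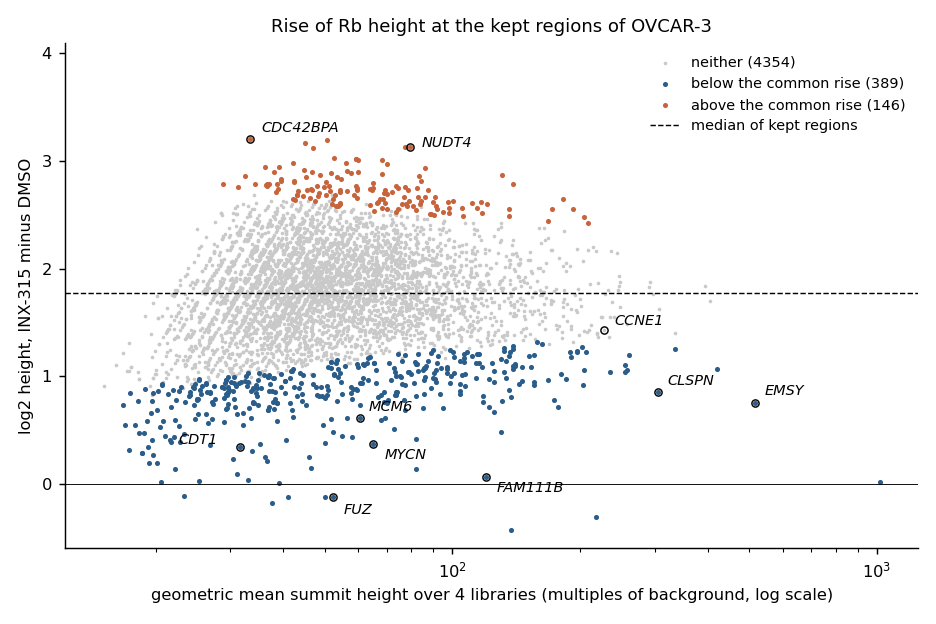
Rise of Rb height (log2, INX-315 minus DMSO) against the geometric mean summit height over the 4 OVCAR-3 libraries (log scale), 1 point per kept region. Blue points are the 389 regions below and orange points the 146 above the common rise, and the dashed line is the median of 1.77. FAM111B lay at 0.06, CDT1 at 0.34 and CDC42BPA at 3.20.

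The promoters named here as below the common rise are those with the lowest p values and were chosen after their values were seen. FAM111B had nearly equal heights in all libraries, 121, 114, 121 and 124. Its log2 difference was 0.06 (SE 0.42, limma adjusted p = 0.892), and relative to the common rise it was -1.80 (adjusted p = 5.87e-05). FUZ, a gene of planar cell polarity and ciliogenesis, had 48.5, 61.8, 39.2 and 64.2 (log2 -0.13), so its treatments overlapped. PRIM1, the catalytic subunit of DNA primase, shares a promoter region with HSD17B6 and had 95, 128, 150 and 157 (log2 0.48). MYCN had 48.5, 67.8, 71.8 and 76.1 (log2 0.37), with its INX-315 libraries just above the DMSO libraries. DNAJC9, a histone co-chaperone, had 117, 164, 196 and 264 (log2 0.72). DNAJC9 was still called higher (limma adjusted p = 0.0644) and the other 4 were not, and a p that misses the threshold does not show that height stayed the same. ENSG00000285043/TLCD3B (log2 0.25) and CLIC1/MSH5 (log2 0.66) completed the group together with EMSY. At the other end, UNC93B1, NUDT4, JMJD1C/REEP3 and ETFBKMT (24.3, 25.9, 163 and 238, log2 2.97) had the lowest p above the common rise.

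**Figure D3:**
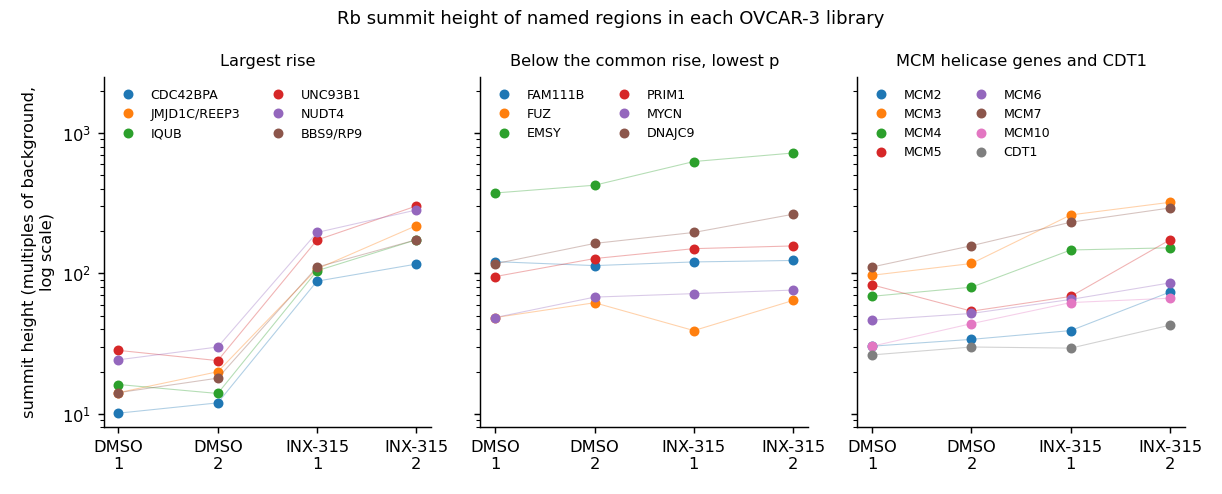
Summit height (multiples of background, log scale) in each OVCAR-3 Rb library for 3 sets of kept regions: the 6 largest rises, the 6 lowest p below the common rise, and the MCM helicase genes with CDT1. Each colour is 1 region, and thin lines only join its points. The left panel lies between 10.1 and 29.9 under DMSO and between 88.1 and 302 under INX-315, whereas FAM111B stayed between 114 and 124.

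Matches to the 2 E2F strings were most frequent at the promoters that rose least. Only these exact strings were sought, so E2F sites of other sequence were not counted. A match stood in 38 of 352 promoter summit windows below the common rise (10.8%, 95% Wilson interval 7.97 to 14.5), in 3.29% (2.80 to 3.88) of those on neither side and in 1.42% (0.39 to 5.02) of those above. Intervals cover counting error only. Of kept promoters 3.82% (3.31 to 4.40) held a match, against 1.75% (1.37 to 2.24) of gained promoters, 1.56% of all protein-coding promoters and 0.84% of the 6875 protein-coding promoters without an OVCAR-3 peak. Start-site windows differ from summit windows in CpG number and in placement, as 43.1% of gained summits lay within 100 bp of a start site. The ETS string CCGGAAGT, for instance, was in 3.45% of gained against 7.44% of all promoters at 10 to 19 CpG. At 0 to 9 CpG it was in 1.65% against 0.40%. The bins below hold CpG number but not placement, so fewer matches in gained than in all promoters may come from placement, which was not tested. Within bins of CpG number, gained promoters held fewer matches than all promoters at 10 to 19 CpG (1.93% against 2.67%), 20 to 29 CpG (1.83% against 2.58%) and 30 or more (0.48% against 1.28%), and more at 0 to 9 CpG (8 of 363 against 46 of 9149). Kept promoters held more than both in every bin, at 5.30%, 4.24%, 3.71% and 1.89% from the lowest to the highest. The 179 kept promoters with a match had a median rise of 1.49 on the log2 scale, and the 4533 without had 1.79. When kept promoters were split into 5 bins of mean height, the median rise in each bin was lower with a match than without, from 1.18 against 1.58 in the lowest bin to 1.47 against 1.75 in the highest. The gap was smallest in the second bin, at 1.66 against 1.81 on 22 promoters with a match. Bins were cut on the mean of all 4 libraries, so DMSO height was not held fixed. No test was made across regions, which are not replicates.

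Other strings were distributed differently. The CCAAT box of NF-Y stood in 28.7% (24.2 to 33.6) of promoter windows below the common rise, 20.7% (19.5 to 21.9) of those on neither side and 14.9% (9.95 to 21.7) of those above. It stood in 24.8% of start-site windows of all protein-coding promoters. The TATA string TATAAA was in 3.69%, 0.95% and 0.00% of the same sets, and in 8.14% of all protein-coding promoters. The NRF1 string GCATGCGC ran the other way, at 1.70% below and 5.67% (2.90 to 10.8) above, where it rested on 8 regions. The GC box was in 56.8% below, 65.4% on neither side and 71.6% above. The CHR element TTTGAA, read by the MuvB subunit LIN54, was in 4.55% of windows below, and its share was 3.52% in kept and 3.48% in gained promoters. Among kept promoters, E2F, NF-Y and TATA strings were therefore more frequent, and GC boxes rarer, below the common rise than on neither side of it. For NF-Y the share over all promoters lay within the interval of the set below. Windows below held a median of 17 CpG, against 20 on neither side and 21 above. These shares were not adjusted for CpG.

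**Figure D4:**
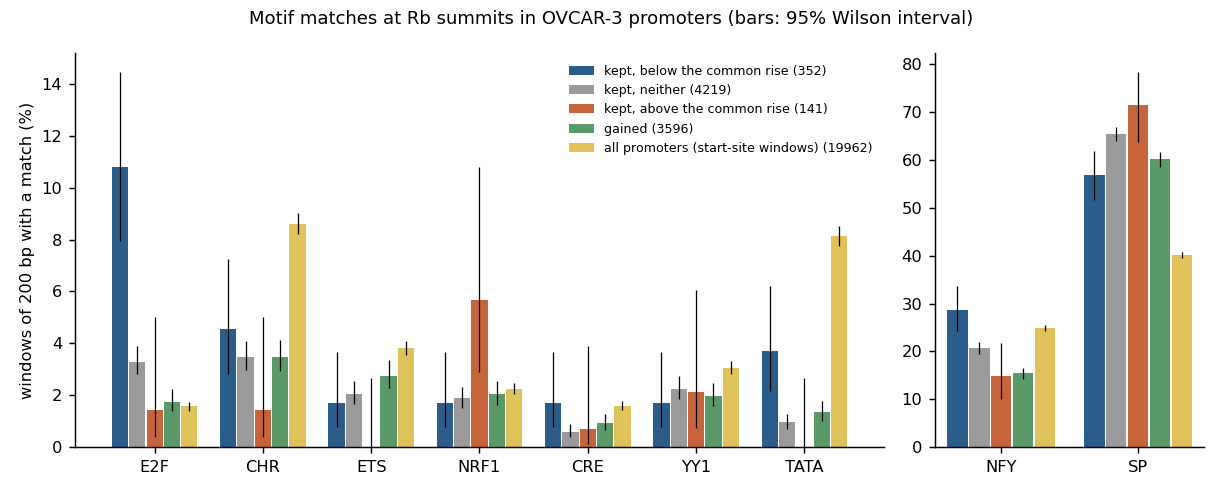
Share (%) of 200 bp windows with a match to each string at Rb summits in OVCAR-3 promoters, for kept regions below, on neither side of and above the common rise, gained regions, and start-site windows of all 19962 protein-coding promoters. Bars start at 0, and error bars are 95% Wilson intervals. E2F matches fall from 10.8% below the common rise to 1.42% above it.

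Genes of the Rb pathway itself were mostly bound before treatment. Of 20 genes for pocket proteins, E2F and MuvB, 17 had a kept promoter region, and 2 a gained one, against 26.7% kept and 16.2% gained over all protein-coding genes. All 17 were called higher, 6 of them lay below the common rise, and their median log2 rise was 1.36 against 1.78 over 5355 protein-coding genes tested, of which 98.4% were called higher and 7.43% lay below the common rise. The pocket protein gene RBL1 (p107) had heights of 139, 158, 215 and 361, a log2 rise of 0.91 (limma adjusted p = 0.0152). E2F8, a repressor E2F, had 54.6, 41.9, 62.0 and 136 (0.94). E2F1, the activator E2F, had 60.6, 67.8, 114 and 202 (1.24), and RB1 itself 26.3, 21.9, 58.7 and 57.1 (1.27). All 4 rose, with no overlap between treatments. TFDP2, an E2F dimer partner, rose most at 40.4, 29.9, 137 and 278 (2.49), followed by the CHR reader LIN54 (2.26). RBL2 (p130) and E2F5 were gained, with INX-315 heights of 35.9 and 42.8 for RBL2.

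Among 20 cyclins, CDKs and their inhibitors, 13 were kept and all 13 called higher, 2 below and 1 above the common rise. Over all protein-coding genes 26.7% were kept and 16.2% gained. Of the 5355 genes tested, 98.4% were called higher, 7.43% lay below and 161 lay above the common rise. CCNE1, the cyclin that activates CDK2, had heights of 125, 154, 303 and 459, a log2 rise of 1.43 (limma adjusted p = 0.000153). CCNA2, a second CDK2 cyclin, had 12.1, 27.9, 117 and 133 and the largest rise of the list, 2.76. CDK2 had 26.3, 29.9, 75.0 and 112 (1.71). All 3 sets of libraries were apart. CDKN2C (p18) rose by 2.14, CDKN2A by 1.25 and CKS1B, an adaptor of cyclin-CDK complexes, by 0.79. CCND1, CDK6 and the inhibitor CDKN1A (p21) were gained, with CDKN1A at 52.2 and 57.1, and CCND2 had no peak.

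Origin licensing genes held the most regions below the common rise. Of 26 genes, 23 were kept and the other 3 had peaks in both INX-315 libraries and 1 DMSO library, so every promoter was bound after INX-315. Of the 23, 19 were called higher and 9 lay below the common rise (CDC6, CDT1, MCM2, MCM4, MCM5, MCM6, MCM7, MCM10 and CDC7), and the median rise was 1.44. Over all 5355 protein-coding genes tested, 98.4% were called higher and 7.43% lay below the common rise, and 26.7% of all protein-coding genes were kept. CDT1, which loads the MCM helicase, had 26.3, 29.9, 29.4 and 42.8 (log2 0.34, limma adjusted p = 0.461), with overlapping treatments. MCM6, a helicase subunit, had 46.5, 51.8, 65.3 and 85.6 (0.61), MCM5 82.9, 53.8, 68.5 and 174 (0.71), and MCM2 30.3, 33.9, 39.2 and 73.7 (0.74). CDT1, MCM2, MCM5 and MCM6 were the 4 that were not called higher. By contrast MCM3 had 97.0, 118, 261 and 321 (1.44), the GINS subunit GINS1 52.6, 85.7, 235 and 376 (2.15), and the origin recognition gene ORC4 rose by 2.26.

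Of 26 genes for the replication fork and nucleotide supply, 24 were kept, 21 called higher and 6 below the common rise (PRIM1, POLA2, POLD2, POLD3, RFC5 and RRM1), with a median rise of 1.43. The shares over all genes tested were 98.4% called higher and 7.43% below, and 26.7% of all protein-coding genes were kept. POLA2, of the polymerase alpha-primase complex, had 40.4, 47.9, 65.3 and 49.9 (0.38, limma adjusted p = 0.42). The sliding clamp PCNA had 101, 154, 316 and 352 (1.42), and the thymidylate synthase TYMS 97.0, 95.7, 215 and 350 (1.51). The single-strand binding subunit RPA2 rose most (2.37). POLA1, the catalytic polymerase alpha subunit, was gained at 39.2 and 85.6. POLA2 was thus among the weakest rises, and PCNA, TYMS and RPA2 rose in both INX-315 libraries.

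Mitotic genes held fewer kept and more gained promoters than the replication lists, in counts that were not tested against each other. Of 20 genes for mitotic kinases, cyclin B and the APC/C, 10 were kept and 6 gained (PLK1, AURKB, BUB1, CDC20, PTTG1 and BIRC5). The shares over all protein-coding genes were 26.7% kept and 16.2% gained. PLK1 had 22.8 and 38.0 under INX-315, the separase inhibitor PTTG1 81.6 and 138, and BIRC5 75.0 and 40.4. All 10 kept genes were called higher, with CDCA8 at 2.26, AURKA at 1.75, TTK at 1.37 and PKMYT1 at 1.25, and 1 (PKMYT1) was below the common rise. Of all genes tested, 98.4% were called higher and 7.43% lay below. Of 25 genes for kinetochores, kinesins and cytokinesis, 11 were kept, 6 gained and 6 present in both INX-315 libraries and 1 DMSO library. Among the gained were ZWINT (117 and 164), KIF4A (62.0 and 69.0), CENPE, KIF20A and ASPM. The kept SPC24 (0.89), CENPH (1.07), KIF23 (2.01) and SPC25 (2.04), parts of the kinetochore or spindle, were all called higher. SPC24 and CENPH were the 2 of the 11 kept genes that lay below the common rise (18.2%).

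**Figure D5:**
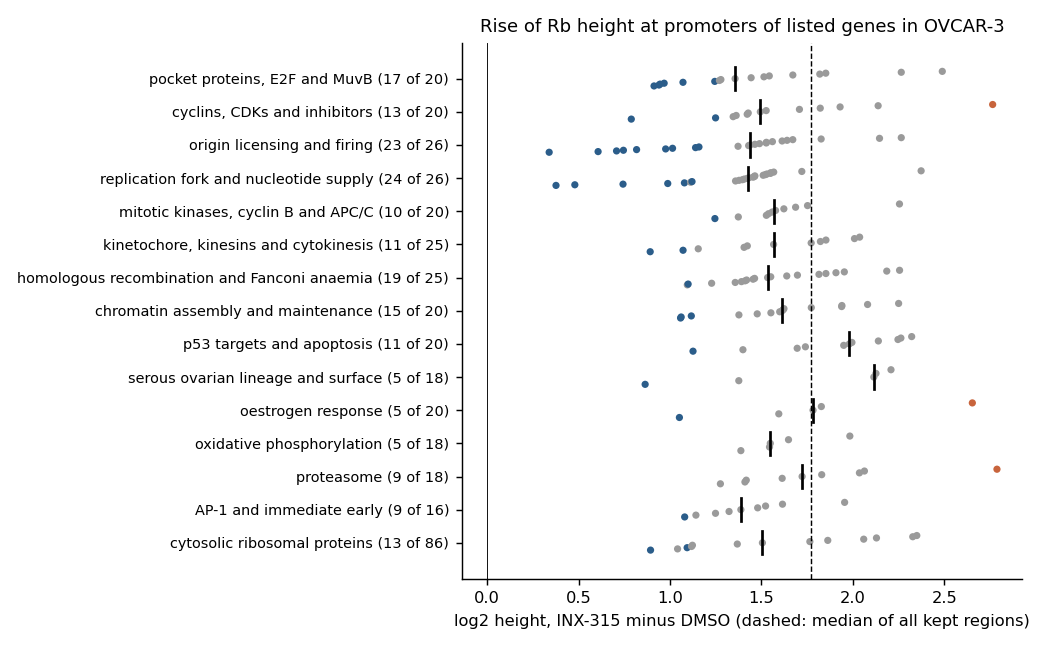
Rise of Rb height (log2, INX-315 minus DMSO) at kept promoters of listed genes, 1 point per gene, blue below and orange above the common rise, with the list median as a vertical bar and the median of all kept regions, 1.77, as a dashed line. Numbers give genes tested of genes listed. Origin licensing genes had a median of 1.44 with 9 of 23 below.

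Genes of homologous recombination and the Fanconi pathway, of interest in serous ovarian cancer, were kept in 19 of 25, gained in 2 (PALB2 and FANCB) and without a peak in 1 (RAD51D). Among all protein-coding genes 26.7% were kept and 16.2% gained. All 19 were called higher, with a median rise of 1.53, and 1, FANCG, lay below the common rise, against 98.4% called higher and 7.43% below over all genes tested. FANCG had 164, 185, 313 and 445 (1.10), and UBE2T rose by 1.09. BRCA1 had 18.2, 31.9, 88.1 and 92.7 (1.91), FANCA rose by 2.19 and FANCF by 2.26. Of 20 chromatin assembly and maintenance genes, 16 were kept and 15 of these tested, all called higher with 3 below (NASP, DNMT1 and HAT1), and ASF1A, DNMT3A and SUV39H1 were gained. NASP, a histone chaperone, had 150, 213, 336 and 411 (1.06). DNMT1 rose by 1.06, ASF1B by 2.08 and the variant histone gene H2AZ1 by 2.25, and TET1 had no peak.

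Outside the cell cycle, p53 target and apoptosis genes were kept in 11 of 20 and gained in 5 (BBC3, TNFRSF10B, ZMAT3, TIGAR and PHLDA3), with a median rise of 1.98. For comparison, 26.7% of all protein-coding genes were kept, 16.2% gained and 34.4% without a peak. APAF1, the apoptosome core, had 38.4, 65.8, 192 and 328 (2.32) and the stress gene SESN1 rose by 2.26, whereas MDM2 rose by 1.40 and the repair gene DDB2 by 1.13. Of 18 serous lineage and surface genes, 5 were kept, 1 was gained (PGR) and 5 had no peak (MUC16, FOLR1, KRT18, ESR1 and CLDN4). WT1 had 80.8, 73.8, 124 and 159 (0.86, below the common rise), SOX17 rose by 1.38, KRT7 by 2.13 and MECOM by 2.21, and PAX8 had peaks in both INX-315 libraries and 1 DMSO library. Rb at a promoter is no measure of expression, so these genes do not check the identity of the cells. Oestrogen response genes were kept in 5 of 20 and gained in 5 (XBP1, CELSR2, CYP26B1, IGFBP4 and ELOVL2). The kept shares of the serous (27.8%) and oestrogen response (25%) lists were thus near that of all genes. MYB (1.05) and RARA (1.59) rose least, AREG by 1.83 and NRIP1, a nuclear receptor co-repressor, by 2.65, and TFF1, PDZK1 and KRT8 had no peak.

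Immediate early and AP-1 genes were kept in 9 of 16 and gained in 4 (FOSB, IER2, IER3 and DUSP1), against 26.7% kept and 16.2% gained over all protein-coding genes. MYC had 78.8, 128, 199 and 226 (1.08, below the common rise), DUSP6 rose by 1.14, ATF3 by 1.62 and FOSL2 by 1.95, and FOSL1 and KLF6 had no peak. Of 18 proteasome genes 9 were kept and 6 gained, among them PSMA3, PSMA4, PSMB1, PSMC2 and PSMD12. PSMA2 had 14.1, 14, 88.1 and 107 (2.79, above the common rise), PSMD1 rose by 2.06, PSMD2 by 1.41 and PSMA1 by 1.28, and PSMB2 and PSMB5 had no peak. Oxidative phosphorylation genes were kept in 5 of 18 and gained in 3 (NDUFA1, SDHB and UQCRC2), with CYCS at 1.39, NDUFS1 at 1.54, NDUFS3 at 1.65 and ATP5F1A at 1.98, and SDHC, COX6C and ATP5PB without a peak. The kept (27.8%) and gained (16.7%) shares of oxidative phosphorylation genes were about those of all genes. All kept genes of these 3 lists were called higher, as were 98.4% of all genes tested. Of 86 cytosolic ribosomal protein genes, a comparator of active promoters, 13 were kept and 23 gained, for instance RPL14 and RPS4X. RPS2 (0.89) and RPL7A (1.04) rose least and RPL7 (2.33) and RPL26L1 (2.35) most, and RPL11 and RPL12 had no peak. All 13 kept ribosomal genes were called higher, and 2 (15.4%) lay below the common rise, against 7.43% of all genes tested. None of 415 olfactory receptor genes, a comparator of inactive promoters, had a peak in any OVCAR-3 Rb library.

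Gained regions were lower than kept regions in both INX-315 libraries, in the lower part of the first list and near the middle of the second. Their median heights were 29.4 and 38.0 in the INX-315 libraries, against 39.2 and 59.4 for regions with 1 DMSO peak as well and 78.3 and 114 for kept regions. The median percentile rank of gained regions was 28.5 in INX-315 1 and 45.0 in INX-315 2, against 80.0 and 84.8 for kept regions. Of the 1000 highest regions in either INX-315 list 0 were gained, and of the 5000 highest 272 and 286 were. To see what these heights would be without the common rise, each was divided by the median kept rise of its library. After division, 2806 of 4100 gained regions (68.4%) in INX-315 1 and 3025 of 4187 (72.2%) in INX-315 2 fell under 12.1, the 5th percentile of listed DMSO heights. In both libraries 812 (19.4%) stayed at or above that limit, of which 735 were at promoters, and 41 stayed at or above 2 times the limit.

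The number gained depended on which libraries were used. It was 9323 without INX-315 1, which left INX-315 2 alone to define a gain, and 483 when every list was cut to the length of the shortest. Lost regions numbered 457 without DMSO 1, 222 without DMSO 2, 48 without INX-315 2 and 265 at equal length. Of the gained regions 85.9% (95% Wilson interval 84.8 to 86.9) were at promoters, against 96.3% (95.8 to 96.8) of the kept, and this share was 70.8% without INX-315 1. Gained summits lay within 100 bp of a start site in 43.1% and within 500 bp in 79.1%, against 51.9% and 91.9% of kept summits. Regions seen in 1 INX-315 library only were farther away, at 22.6% and 46.3%, with 19.1% beyond 10 kb. Of promoter regions for protein-coding genes, 20.9% of kept and 14.1% of gained ones served 2 or more genes. Windows of gained regions held a median of 18 CpG against 20 in kept and 10 in the single-library regions. By these measures gained regions lay between the kept and the single-library regions.

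The gained promoters of highest rank belonged to genes of varied function, and no theme was tested. PCCB had INX-315 heights of 137 and 178 on 42 and 75 fragments (chr3:136250285-136250986), and DCUN1D1 117 and 178 (chr3:182979449-182980945). Both hold the GC boxes printed above. SH3GLB1 had 84.8 and 152, MKRN1 104 and 152, and the kinetochore gene ZWINT 117 and 164. The others were TRIM68, SPSB2, CCDC88B, SYS1 and GFOD2, at 84.8 to 111 in INX-315 1 and 102 to 143 in INX-315 2. PCCB remained at 48.6 and 42.8 after division by the common rise. Outside promoters the highest gained regions were nearest to the chromatin remodeller CHD5 (101 and 133, 4.47 kb away), OTOS (78.3 and 109), EBLN1 (48.9 and 119), the homeobox gene DLX5 (62.0 and 99.9) and the NADPH oxidase gene NCF1 (48.9 and 85.6). Of the 3 lost regions of highest rank, 2 lay on unplaced sequence and 1, of 22.2 and 17.9 under DMSO, lay 16.7 kb from MEGF9.

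Kuramochi shared most kept sites and fewer gained ones. Of OVCAR-3 kept regions 95.7% overlapped a peak in both Kuramochi INX-315 libraries and 67.0% in both Kuramochi DMSO libraries. Of gained regions 60.3% overlapped both Kuramochi INX-315 libraries, 8.91% both Kuramochi DMSO libraries, and 21.1% no Kuramochi Rb peak, against 1.88% of kept regions. Kuramochi lists depend on their own depth, so absence there is not absence of Rb. Whether height responded differently in the lines was tested with an interaction term at 3226 regions with a peak in all 8 libraries. The median rise was 1.78 in OVCAR-3 and 1.52 in Kuramochi on the log2 scale, with a median difference of 0.26 over regions, and the standard error of the difference at a single region had a median of 0.61. With 1 library left out, the median difference ranged from -0.04 (without Kuramochi DMSO 2) to 0.57 (without Kuramochi DMSO 1). It was -0.01 without OVCAR-3 INX-315 2, so its sign rested on single libraries. limma called 0 regions (0%), with the lowest adjusted p at 0.901, and 91 (2.82%) had an unadjusted p under 0.05, of which 88 rose more in OVCAR-3. With the replicate number as a block 1 region was called. The test does not show that the lines respond alike.

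The regions with the lowest p in that test are given as values. TNNT1, a troponin gene, had OVCAR-3 heights of 14.1, 31.9, 94.6 and 121 and Kuramochi heights of 29.2, 31.6, 39.5 and 27.8, with log2 rises of 2.33 and 0.13 (difference 2.21, SE 0.61). GLUD1/SHLD2 had rises of 2.51 and 0.59, the splicing gene SNRPC 1.61 and -0.28, PHF14 2.16 and 0.27, ZMIZ1 2.23 and 0.57, and the N-cadherin gene CDH2 2.95 and 1.29. In the other direction ENSG00000285043/TLCD3B had 0.25 in OVCAR-3 and 1.76 in Kuramochi, RUFY2 0.86 and 2.10, the kinase ARAF 0.84 and 2.06, CCDC85B/FIBP 0.43 and 1.60, the transcription factor SOX4 0.47 and 1.64, and ZNF57 0.92 and 2.05. None of these 12 passed the test between lines.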

How the data were processed

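Rb CUT&RUN peak lists of OVCAR-3 and Kuramochi cells were used, with groups from the labels. Per the study's methods, the authors aligned reads to hg38 with Bowtie2 (version 2.3.4.1 in the submitters' processing notes) and kept duplicates. They called peaks in each library with MACS2 2.2.7.1 in paired-end mode against IgG2a, at a q-value of 0.05. The deposited lists give a fold enrichment (a linear ratio) and −log10 p and −log10 q values made by the authors' peak caller. The fold and p-value of a peak together return its whole number of fragments and local background, within a relative tolerance of 3e-05. This was possible for 98.8% to 100% of Rb peaks in OVCAR-3. Read totals are not in these lists, and single-locus heights rest on few fragments.

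Peaks overlapping by at least 1 bp were merged. log2 heights were tested with limma 3.58.1 (R 4.3.3; mean-variance trend, Benjamini-Hochberg adjustment over all tested regions, threshold 0.1), and library values by exact permutation. Heights divided by the genome-wide background replaced the reads that the study's own differential test used. A run of the fit on simulated data held no shift of whole libraries. That run therefore does not check the fit under the common rise seen here. Promoters used 252835 transcription start sites of GENCODE on GRCh38. Strings were sought in windows of 200 bp around the summit, taking the summit of the library with the greatest height there. Python 3.11.15, numpy 2.4.6, pandas 2.3.3, scipy 1.17.1, pysam 0.24.0 and matplotlib 3.10.9 were used. The named genes are the 12 promoters and 3 other kept regions with the largest called rises, the 10 highest kept promoters, the 10 and 5 highest-ranked gained regions in and outside promoters, the 3 highest-ranked lost regions, up to 2 extremes with the gained and unbound members of each list, and the 6 lowest p values per direction between lines. Regions below or above the common rise and the settings tied to them were added after the data were seen. Some genes that the rule names are not reported here. The members, lists and rules were chosen with earlier results of these data known.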

Additional observations from a re-analysis of the deposited data

Results flagged for a closer look

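The IgG2a library of OVCAR-3, which served as control and entered no comparison, held 257 peaks. Of these 25 lay on chromosomes 1 to 22 and X and 232 on other sequences. They overlapped 41 of the merged Rb regions, of which 4 were kept, 0 gained and 2 lost. None of the 4 kept regions and 1 of the 2 lost regions lay on chromosomes 1 to 22 and X. Groups of 2 libraries were not tested for outlying samples.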

How the results depend on the processing

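Heights have no absolute scale across libraries, so centring sets the size of every difference. Centred heights gave 146 regions higher and 389 lower in place of 4783 and 0, and moved the median log2 difference from 1.77 to -0.089. The named regions whose sign turned under centring were FAM111B -1.80, ENSG00000285043/TLCD3B -1.61, CDT1 -1.52, MYCN -1.50, POLA2 -1.49, HSD17B6/PRIM1 -1.38, MCM6 -1.25, CLIC1/MSH5/MSH5-SAPCD1 -1.20, DNAJC9 -1.15, EMSY -1.11, CKS1B -1.07, CLSPN -1.01, WT1 -0.997, SPC24 -0.97, RBL1 -0.95, E2F8 -0.92, MYB -0.81, NASP -0.80, DNMT1 -0.80, SLF2 -0.80, CENPH -0.79, MYC -0.78, UBE2T -0.77, FANCG -0.76, DDB2 -0.74, DUSP6 -0.72, PKMYT1 -0.62, KPNB1 -0.61, CDKN2A -0.61, PSMA1 -0.59, TTK -0.49, SOX17 -0.49, CYCS -0.47, CSE1L -0.47, MDM2 -0.46, PSMD2 -0.45, NDUFS1 -0.32, RARA -0.27, ATF3 -0.25, HNRNPL -0.23, NDUFS3 -0.21, GGN/SPRED3 -0.16, AURKA -0.11, CNOT3 -0.096, AREG -0.034 and INTS4 -0.022. By the listed fold enrichment ENSG00000285043/TLCD3B was at -0.092 and FAM111B at -0.16. With 1 library left out FUZ ranged from -0.48 to 0.23 (0.05 without DMSO 2) and ENSG00000285043/TLCD3B from -0.11 to 0.61. Of 1153 values for named regions under alternatives, 1004 kept direction and side of the threshold, 90 lost and 8 gained a call, and 51 turned sign, 5 of them outside centring. Leaving out 1 library gave 4589 to 4947 regions called higher and 0 to 1 lower, a median rise of 1.49 to 2.05, 4885 to 9323 gained, 17 to 457 lost and 4893 to 6956 kept regions, and 70.8% to 87.9% of gained regions at promoters. Calls on either side of the common rise fell from 146 and 389 to 0 to 0 with 1 library left out, to 0 and 0 with local background, and to 68 and 131 of 849 regions with at least 20 fragments in each DMSO library, where 833 were called higher. A q-value of at most 0.001 left 8 lost regions, 87.8% of gained regions at promoters and a width ratio of 1.39. At equal list length 483 regions were gained and 265 lost, 94.2% of the gained were at promoters, and the width ratio was 2.02. The ratio of peak numbers has no value at equal length. Libraries shared replicate numbers, and the differences between replicates were not correlated across kept regions (-0.05). That value cannot show whether libraries were handled in pairs, because a shift of whole libraries does not enter it. The median log2 difference, replicate 2 minus replicate 1, was 0.20 with DMSO and 0.56 with INX-315. The replicate block gave 4818 regions higher, 2 lower, 413 below and 152 above the common rise, and 1 region that differed between lines. The cause of these changes was not tested. The alternatives on 20 fragments and on the common rise were chosen after seeing the data.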
